A study of Mus musculus with 18 samples.

Results

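The genes described are 10 G protein-coupled receptors of the oligodendrocyte lineage, out of 38046 genes in the expression table. They are Gpr37, Gpr37l1, Gpr17, Lpar1, S1pr1, S1pr2, S1pr5, P2ry1, Chrm1 and Chrm3, and each was found in the table by its exact symbol. The set was selected on 1 measured value besides membership of the family, a lower Gpr37 level in null than in control cells at day 4, so the day 4 comparison of the genotypes is given as a description with no p-value for any receptor. Gpr37 has no p-value in any comparison of day 4 libraries with others. Its other p-values still rest on a spread estimated over all libraries, day 4 included. Leaving out a clone of 1 genotype can therefore move a p-value within the other genotype.

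RNA was sequenced from mouse oligodendrocyte progenitor cells (OPCs), grown as clonal lines that derived from primary neural stem cells. The control genotype was represented by clones D7, D3 and E8, and the Thap1 null genotype by clones 3F, D6 and 7F. Every clone gave 1 library as dividing OPCs in growth medium with the mitogen PDGF-AA, 1 after 2 days in vitro (DIV2) and 1 after 4 days (DIV4) in differentiation medium with the thyroid hormone T3, for 18 libraries in 6 groups of 3. The labels do not say how the null clones were made or whether clones came from separate animals, so p-values measure the spread between clones. The question put by the series is how THAP1, a zinc-finger transcription factor, bears on oligodendrocyte development.

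G protein-coupled receptors span the membrane and pass a signal to heterotrimeric G proteins, which act on adenylyl cyclase or phospholipase C, until kinases and arrestins switch the receptor off. In the oligodendrocyte lineage such receptors respond to lysophospholipids, nucleotides and acetylcholine, and several, Gpr17 and Gpr37 among them, are known as timers or brakes of differentiation. Gpr17 is known to be transient, with its peak in cells that have left the cycle but do not yet make myelin. Gpr37, Lpar1 and S1pr5 are known from differentiating and myelinating oligodendrocytes, whereas Gpr37l1 and S1pr1 are also abundant in astrocytes.

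Levels are rescaled TPM: the deposited TPM, which correct for transcript length, were summed per gene and divided by 1 factor per library so that the typical gene was equal across libraries. The rescaling mattered for the OPC stage. The noncoding features Gm15662, Gm26924 and mmu-mir-6236 took up 64.8% to 88.0% of deposited TPM in control OPCs, against 0.789% to 34.8% in null OPCs and at most 3.17% in any DIV2 or DIV4 library. On deposited TPM the median gene was therefore 1.50 log2 units higher in null than in control OPCs, and 1.96 log2 units higher in control cells at DIV2 than as OPCs, against 0.06 and 0.07 after rescaling. Of the genes called, the share higher in null cells was 53.0% in OPCs, 59.2% at DIV2 and 61.3% at DIV4 after rescaling, and 99.6%, 42.9% and 32.1% on deposited TPM. The share higher at DIV2 than in OPCs was 55.5% in control and 54.2% in null cells after rescaling, and 99.3% and 80.3% on deposited TPM. Thap1 itself, read on its protein-coding transcripts, had a rescaled TPM of 3.92 ± 0.722 in control OPCs and 0.610 ± 0.163 in null ones (SD, n = 3). The coding level was 2.42 ± 0.429 against 0.557 ± 0.183 at DIV2 and 2.95 ± 0.733 against 0.473 ± 0.280 at DIV4 (SD, n = 3), with no overlap at any stage. With noncoding transcripts added, the Thap1 level was higher in null than in control OPCs, at 10.5 ± 1.44 against 5.85 ± 1.90 rescaled TPM (SD, n = 3; limma adjusted p = 0.0348), and it was 8.10 ± 1.25 against 4.66 ± 0.733 at DIV2 and 7.23 ± 1.96 against 6.01 ± 1.35 at DIV4.

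The labelled cell type was checked against marker genes. As OPCs, the 9 OPC markers in the table summed to 450 to 874 rescaled TPM, Pdgfra among them at 71.4 to 103. The 12 oligodendrocyte markers summed to 113 to 791 in OPCs and to 3384 to 7071 at DIV2. Of the 10 tested, all 10 rose in control and 8 in null cells, beside 19.2% and 14.9% of all genes. Microglial markers summed to at most 0.947 rescaled TPM and endothelial and mural markers to at most 5.41 in every library, with Cldn5 and Cdh5 at or near 0. Neuronal markers summed to 68.7 to 145 rescaled TPM, with Slc17a7 under 0.1. Astrocyte markers were present: their sum was 62.3 to 166 in OPCs and up to 588 at DIV4, although Gja1 did not pass 0.101 in any library.

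A pair of libraries stood apart from the rest of their groups. Control D7 at DIV4 had an oligodendrocyte marker sum of 13412, against 2687 and 2442 in control D3 and E8 and 2121 to 3140 in null cells. Its astrocyte marker sum was 96.8, against 381 and 588 in D3 and E8 and 425 to 504 in null cells, and its Gfap level was 0.176 against 80.0 to 235 in all the others. Control D3 as an OPC had a cell cycle marker sum of 68.7, against 564 to 752 in the other OPC libraries. Results that rest on these clones are given with and without them. In bulk RNA, fewer cells of a type and less RNA per cell cannot be told apart.

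**Figure D1:**
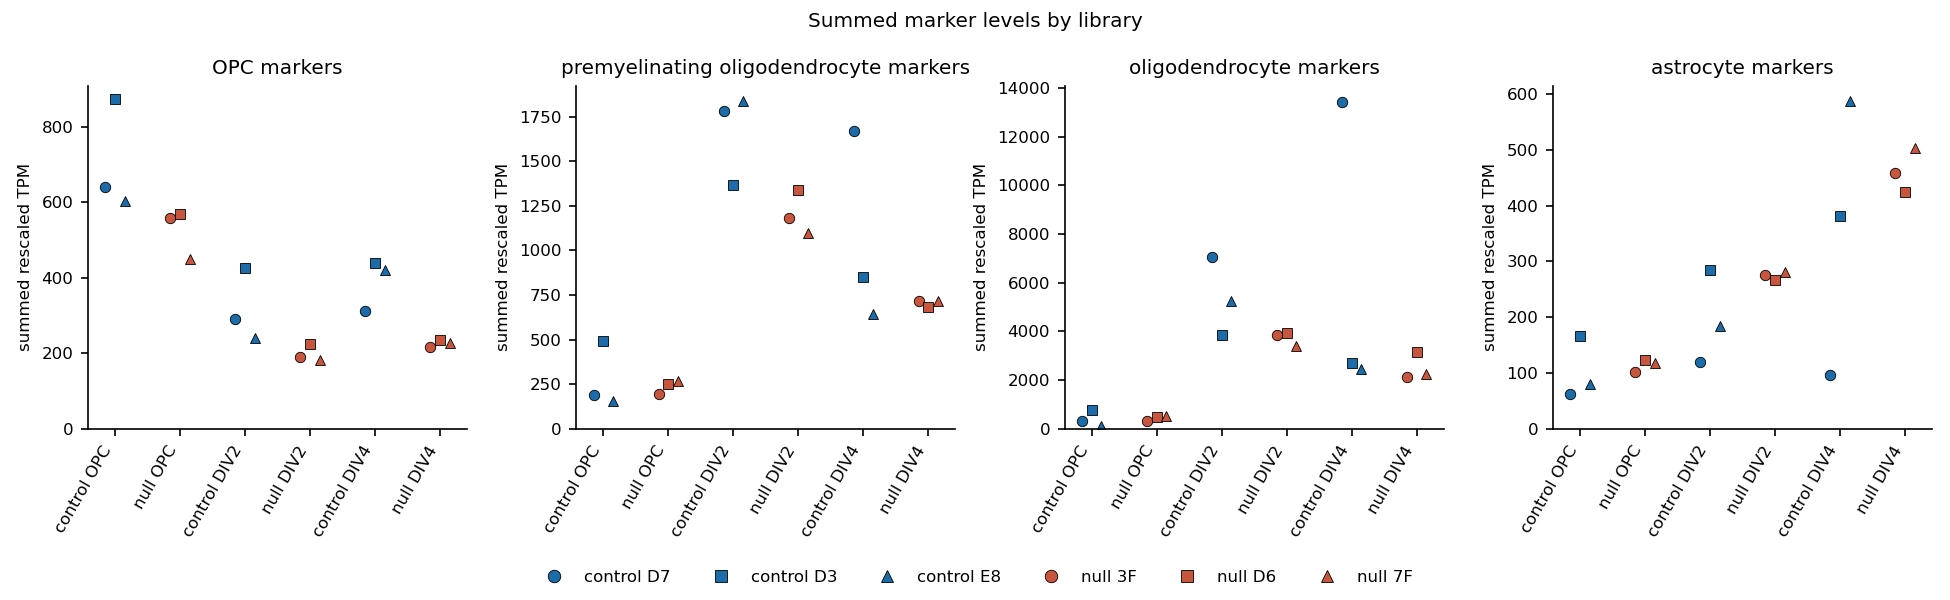
Summed rescaled TPM of 4 marker lists (vertical axes, linear from 0) in each library, by genotype and stage; blue points are control and red points null clones, with the shape giving the clone. Control D7 at DIV4 sits alone, at 13412 for oligodendrocyte markers and at 96.8 for astrocyte markers.

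Promoter sequence was read as context for the values. RefSeq windows on GRCm38.p6, taken here as the 250 bases before the RefSeq start of transcription, matched 7 of the 10 receptors. They were searched on both strands for TNNGGGCA, the binding letters known for THAP1, for CTGGNAC, those of the myelin regulator MYRF, and for ACAAAG (SOX) and CAGATG (E-box). Over all 32851 windows of the same length, 11.9% held TNNGGGCA, 16.1% CTGGNAC, 16.5% ACAAAG and 14.4% CAGATG. Of the 7 receptors, 0 held TNNGGGCA, 2 CTGGNAC (Lpar1 and S1pr5), 2 ACAAAG (Lpar1 and S1pr2) and 3 CAGATG (Lpar1, Gpr37 and S1pr2) in at least 1 window. Lpar1 had more than 1 window, and so more chances of a match than the single windows of the background. Gpr37l1, P2ry1 and Chrm3 held none of the 4. The window of S1pr5, which was high in differentiated control cells, lies at chr9:21248444-21248693 on the minus strand and holds CTGGNAC on both strands, in overlapping positions from -169 to -160 before the start. The window overlaps an exon of Gm48303, annotated on the opposite strand. The window of S1pr2, which fell on differentiation in control cells, lies at chr9:20976794-20977043 on the minus strand. It holds ACAAAG from -90 to -85 and CAGATG, on the opposite strand, from -38 to -33. Both are printed 5′ to 3′ along the gene, with the matched letters in capitals.
S1pr5: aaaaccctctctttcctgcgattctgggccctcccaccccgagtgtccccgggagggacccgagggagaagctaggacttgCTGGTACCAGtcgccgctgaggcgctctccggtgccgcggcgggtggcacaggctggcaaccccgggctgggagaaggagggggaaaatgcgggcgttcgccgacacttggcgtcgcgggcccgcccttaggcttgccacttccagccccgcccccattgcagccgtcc
S1pr2: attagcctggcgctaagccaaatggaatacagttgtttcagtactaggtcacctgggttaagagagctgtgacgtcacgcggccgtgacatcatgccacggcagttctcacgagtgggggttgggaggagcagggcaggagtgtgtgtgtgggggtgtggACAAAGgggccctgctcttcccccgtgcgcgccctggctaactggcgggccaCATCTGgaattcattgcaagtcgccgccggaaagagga

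For Lpar1 and Gpr37 only 1 site each is shown, in capitals within 30 bases. Lpar1 had CTGGNAC at -127 to -121 from the RefSeq start of the most upstream of its 3 windows (site at chr4:58553600-58553629, minus strand), and its other windows held ACAAAG or CAGATG. Gpr37 had CAGATG at -102 to -97 from its RefSeq start (site at chr6:25690065-25690094, minus strand). Both sites lie inside the gene as GENCODE annotates it, which starts further upstream: the Lpar1 window overlaps 3 GENCODE exons and the Gpr37 window 1. A match describes the letters only and is not a measured binding site.
Lpar1: aggtaaggaggCTGGCACccgtgcctcttc
Gpr37: ctctccacaaacCAGATGctctgctagaag

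Of the 10 receptors, 7 reached a mean of 1 rescaled TPM over all libraries and entered the test, limma on log2(rescaled TPM + 1) over 12439 genes with Benjamini-Hochberg adjustment. P2ry1 (mean 0.950), Chrm1 (0.298) and Chrm3 (0.151) did not. S1pr5 (1.21) passed only through control DIV2 and DIV4, and S1pr1 (1.77) only through control DIV4. A gene is called at an adjusted p under 0.05, and log2 changes are on the log2(rescaled TPM + 1) scale, on which low genes change by less than their ratio.

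Differentiation of control cells gave more receptor calls than any other comparison tested. From OPC to DIV2, Gpr37 and Lpar1 rose and S1pr2 fell. S1pr5 was the third gene called higher, for 3 and 1 among 7 receptors tested, beside 19.2% of all genes called higher and 15.4% called lower. S1pr5 reached the filter only through control DIV2 and DIV4, so a difference of these groups from the others was built in and its call supports nothing. In null cells over the same interval, 1 of 7 was called higher, Gpr37l1, beside 14.9% of all genes, and 0 were called lower, beside 12.6%. In neither genotype was a receptor called from DIV2 to DIV4, where 0.249% of all genes were called in control and 1.68% in null cells, and Gpr37 was left out of that count. At an unadjusted p under 0.05 there were 0 receptors in control cells and 1, S1pr2, in null cells. A further receptor, S1pr1, was called as higher at DIV4 in control cells once D7 was left out. It reached the filter only through control DIV4, so that call was built in and supports nothing.

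Between the genotypes, 1 receptor was called at the stages tested, Lpar1 at DIV2. As OPCs, none of the 7 was called and none had an unadjusted p under 0.05 (limma; 11.2% of all genes were called) and none had groups that did not overlap, beside 24.4% of all genes. On deposited TPM 4 were called as higher in null OPCs, Gpr37l1 (2.94 log2 units), Gpr17 (2.19), S1pr2 (1.32) and Gpr37 (0.89). There 10407 of all genes tested were called higher, beside the shift of the median gene given above. At DIV2, 1 of 7 was called, Lpar1, which was lower in null cells, beside 2.68% of all genes called and 1.09% called lower. By position alone, the 3 null libraries at DIV2 lay below all 3 control libraries for Gpr37, Lpar1 and S1pr5 and above them for Gpr37l1 and S1pr2, beside 15.5% and 14.9% of all genes. At DIV4 the null libraries lay below all controls for the same 3 receptors and above them for Gpr37l1, S1pr2 and Gpr17, beside 12% and 14.4% of all genes. The day 4 counts include the value that chose the set and are a description. On deposited TPM the groups of S1pr2 overlapped at both stages and those of Gpr17 at DIV4.

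**Figure D2:**
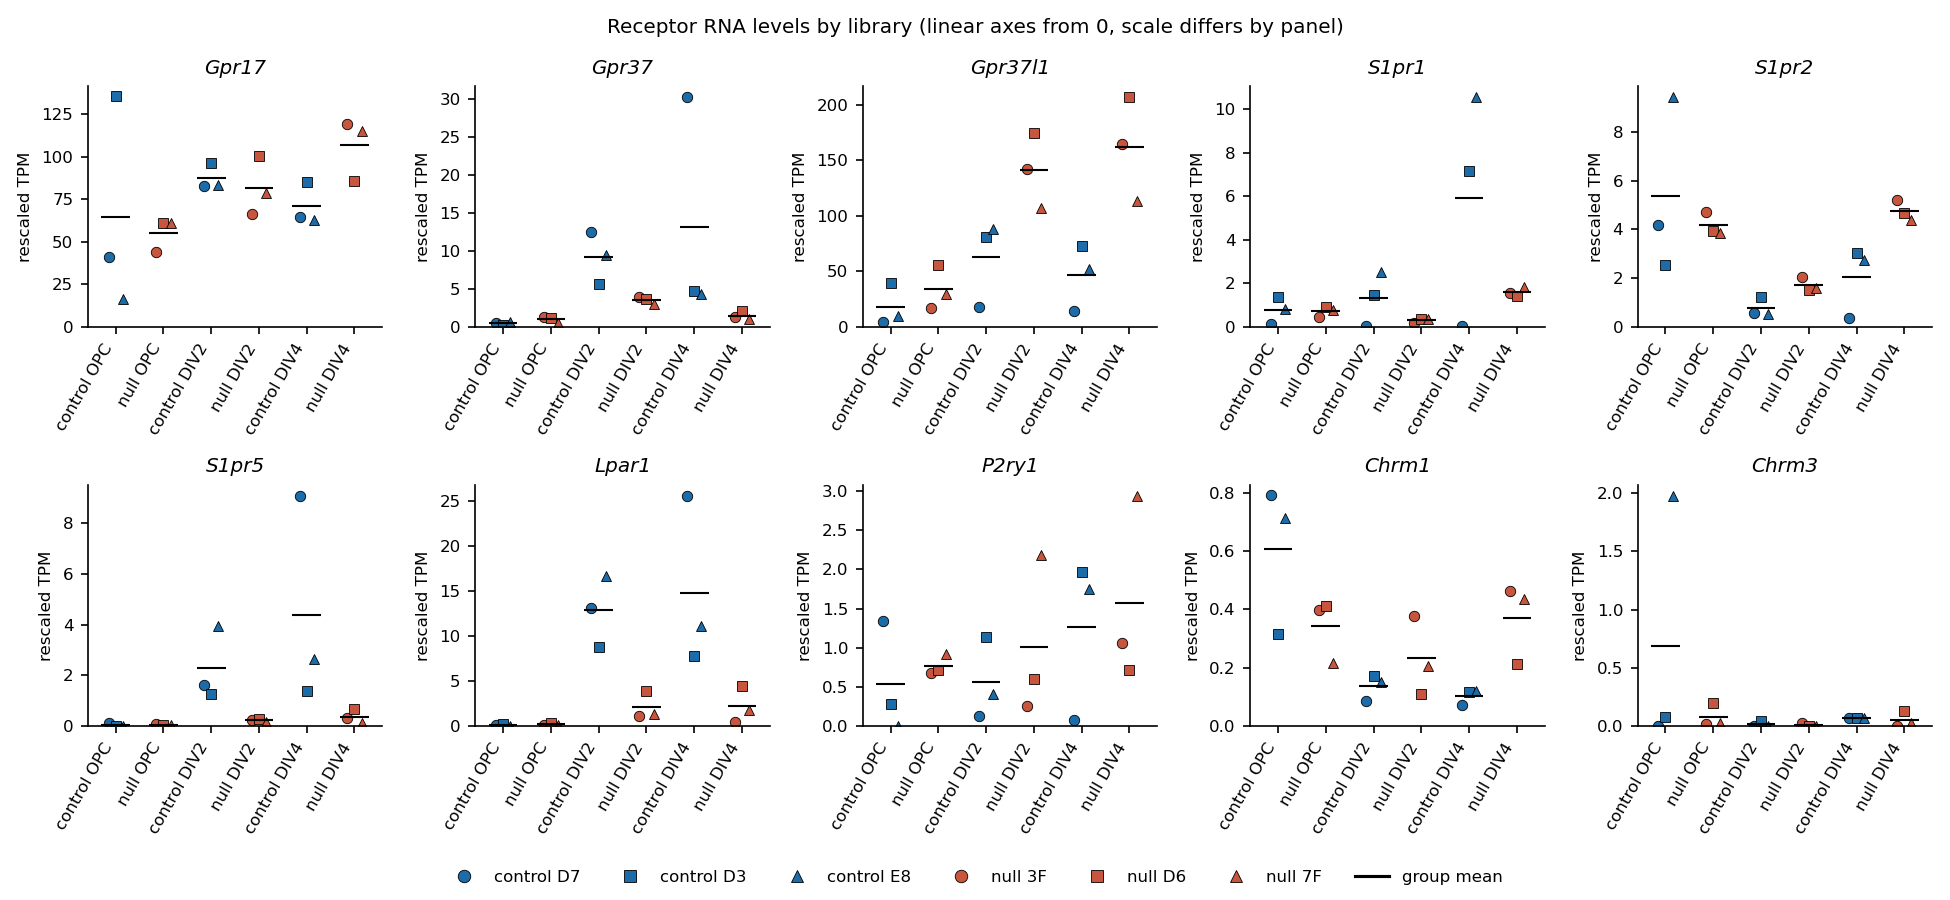
Rescaled TPM (vertical axes, linear from 0, with a scale of its own in each panel) of the 10 receptors in all 18 libraries; blue points are control and red points null clones, the shape gives the clone and the bar the group mean of 3. Lpar1, S1pr5 and Gpr37 are near 0 in all OPC libraries and higher in control than in null cells at DIV2 and DIV4, with control D7 at DIV4 highest for all 3.

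Gpr37 and Gpr37l1 are sister orphan receptors, for which prosaposin and its peptides have been proposed as ligands. Gpr37 (ENSMUSG00000039904; GRCm38 chromosome 6, 25665878 to 25690729, minus strand) was low in OPCs, at 0.437, 0.234 and 0.655 rescaled TPM in control D7, D3 and E8 and 1.33, 1.22 and 0.527 in null 3F, D6 and 7F. At DIV2 it was 12.5, 5.60 and 9.43 in the control clones and 3.87, 3.6 and 3.01 in the null clones. Every control library was above every null library at this stage. In control cells Gpr37 rose by 2.77 log2 units from OPC to DIV2 (SE 0.50, limma adjusted p = 0.000911). The change in null cells, 1.17 log2 units (SE 0.50, limma adjusted p = 0.0991), did not pass the test. It did on deposited TPM (limma adjusted p = 0.00969), with a pseudocount of 0.1 (0.0437), with only the libraries compared (0.00702) and without control D7 (0.00262). Nor did the difference between genotypes at DIV2, -1.13 log2 units (SE 0.50, limma adjusted p = 0.318), pass it.

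At DIV4 Gpr37 was 30.2, 4.71 and 4.32 rescaled TPM in control D7, D3 and E8, and 1.26, 2.08 and 1.08 in null 3F, D6 and 7F. The groups did not overlap, and 1 control library, D7, was far above the other pair. The difference of -2.01 log2 units between null and control cells was -1.18 without D7, whose oligodendrocyte marker sum was also the highest; the part of these markers in the Gpr37 difference was not tested. From DIV2 to DIV4 the null mean went from 3.49 ± 0.440 to 1.47 ± 0.535 (SD, n = 3), whereas the control mean went from 9.19 ± 3.48 to 13.1 ± 14.8 (SD, n = 3).

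Gpr37l1 (ENSMUSG00000026424; chromosome 1, 135160234 to 135167681, minus strand) lay at a far higher level and had the opposite sign. In OPCs it was 4.20, 39.8 and 9.50 rescaled TPM in control D7, D3 and E8 and 17.3, 55.2 and 29.1 in null 3F, D6 and 7F, with overlapping groups. Gpr37l1 at DIV2 was 17.8, 81.2 and 88.6 in control and 142, 175 and 107 in null clones. Its level at DIV4 was 14.6, 72.7 and 52.0 in control and 165, 207 and 113 in null clones. At both differentiated stages all null libraries were above all controls, and D7 was the lowest library.

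In null cells Gpr37l1 rose by 2.15 log2 units from OPC to DIV2 (SE 0.76, limma adjusted p = 0.0487), and with each clone as a replicate block the limma adjusted p was 0.00169. This call was lost when any 1 of the null clones or control E8 was left out, with limma adjusted p-values of 0.302 without 3F, 0.13 without D6, 0.167 without 7F and 0.0695 without E8. With all clones it was also lost under quantile normalization (limma adjusted p = 0.0563), a pseudocount of 0.1 (0.0547), no filter (0.116) and no trend (0.0513). In control cells the change was 1.99 log2 units (SE 0.76, limma adjusted p = 0.0568), which became a call with the clone as a replicate block (limma adjusted p = 0.00213), and also without D7 (limma adjusted p = 0.0286) or D3 (limma adjusted p = 0.0246). The genotype differences, 1.27 log2 units in OPCs (limma adjusted p = 0.296) and 1.43 at DIV2 (limma adjusted p = 0.428), were not called. In OPCs the difference was 0.60 without D7 and 2.09 without D3 (limma adjusted p = 0.0623), and at DIV2 it was 0.70 without D7. The description at DIV4 is 2.01 log2 units, and 1.34 without D7.

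Astrocyte markers are given beside Gpr37l1 because astrocytes express it. Their summed rescaled TPM at DIV2 was 119, 284 and 184 in the control clones D7, D3 and E8 and 277, 267 and 282 in null 3F, D6 and 7F, and at DIV4 it was 96.8, 381 and 588 against 459, 425 and 504. Of the defining astrocyte genes, Gfap at DIV4 was 80.0 to 139 in null cells and 100 and 235 in control D3 and E8. Slc1a2 at DIV4 was 2.65 to 7.04 in null cells and at least 30.5 in control D3 and E8, and Aqp4 was at most 0.200 in null cells and 3.00 and 6.63 in those controls. Over the 8 astrocyte markers tested, with D7 included, the median difference at DIV4 was 0.30 log2 units, higher in null cells. Slc1a3 at DIV4 was 3.42 to 9.11 in null cells and 26.8 and 74.6 in control D3 and E8. The list median takes in D7 and these single-gene values do not, so they cannot be set against each other. The part of astrocytes in the Gpr37l1 levels was not tested.

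The balance within this pair does not depend on library scaling and was worked out after the values were seen. Gpr37 made up 41.3%, 6.46% and 9.63% of the summed TPM of both genes at DIV2 in control D7, D3 and E8, and 2.65%, 2.01% and 2.74% in null 3F, D6 and 7F. The groups did not overlap. This was fixed by the levels above, since at DIV2 every null library was below all controls for Gpr37 and above them for Gpr37l1. The separation of the shares therefore gets no p-value and adds no support. In OPCs the shares were 0.585% to 9.43% in control and 1.78% to 7.14% in null cells (two-sided exact permutation test, p = 0.7). At DIV4 they were 67.4%, 6.09% and 7.67% in the control clones and 0.758%, 0.997% and 0.943% in the null clones.

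Lpar1, the main receptor for lysophosphatidic acid in the lineage, changed most of the lysophospholipid receptors. The gene (ENSMUSG00000038668; chromosome 4, 58435255 to 58553898, minus strand) was almost silent in OPCs, at 0.0607, 0.176 and 0 rescaled TPM in control D7, D3 and E8 and 0.125, 0.296 and 0.107 in null 3F, D6 and 7F. Lpar1 at DIV2 was 13.1, 8.75 and 16.7 in control clones and 1.13, 3.85 and 1.28 in null clones. By DIV4 its level was 25.5, 7.81 and 11.1 in control and 0.418, 4.37 and 1.78 in null clones. The groups were apart at both differentiated stages, and D6 was the highest null library at each.

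Control cells raised Lpar1 by 3.64 log2 units from OPC to DIV2 (SE 0.46, limma adjusted p = 8.11e-05). In null cells the change was 1.29 log2 units (SE 0.46, limma adjusted p = 0.0517), a call once the clone was a replicate block (limma adjusted p = 0.0218) or D7 was left out (limma adjusted p = 0.0453). At DIV2 Lpar1 was lower in null cells by -2.23 log2 units (SE 0.46, limma adjusted p = 0.0176), in 3 of 3 null libraries against every control. That call was lost without control E8 (limma adjusted p = 0.12), null 3F (limma adjusted p = 0.0914) or null 7F (limma adjusted p = 0.188), and at limma adjusted p-values of 0.0531 and 0.0579 when only the DIV2 libraries or a pseudocount of 0.1 were used. The difference between the genotypes in the change from OPC to DIV2, tested directly, was -2.35 log2 units (SE 0.66, limma adjusted p = 0.129) and was not called. At DIV4 the difference was again -2.35 log2 units, and -1.90 without D7.

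The 12 oligodendrocyte markers summed to 7071, 3841 and 5242 rescaled TPM at DIV2 in the control clones D7, D3 and E8 and to 3840, 3939 and 3384 in null 3F, D6 and 7F, and these groups overlapped. Those of other lineage markers did not. The premyelinating markers summed to 1365 to 1838 in control and 1096 to 1339 in null cells, and the OPC markers to 241 to 426 against 183 to 226. Mbp, which encodes a major myelin protein, was 1583, 1157 and 837 against 415, 806 and 364 in the same libraries, again without overlap. The part of cell maturity in the Lpar1 difference was not tested.

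Lpar1 was the only one of the 7 tested receptors with several transcripts in the table, 8 in all. The transcript ENSMUST00000055018 held 46.7% to 59.6% of Lpar1 TPM in control and 14.6% to 40.8% in null cells at DIV2, and 44.0% to 61.7% against 18.1% to 33.0% at DIV4 (lowest and highest of 3 libraries). Its level at DIV2 was 7.09 ± 2.51 rescaled TPM in control and 0.736 ± 0.735 in null cells (SD, n = 3). Annotated starts of the transcripts lay at 58553357 for ENSMUST00000055018 and at 58499403 for ENSMUST00000107570, the most downstream. Splitting reads among transcripts is an estimate, and least sure where the gene is low, as in null cells.

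S1pr5, the sphingosine-1-phosphate receptor best known from oligodendrocytes, followed the pattern of Lpar1 at a lower level. S1pr5 (ENSMUSG00000045087; chromosome 9, 21242912 to 21248443, minus strand) was 0.0935 rescaled TPM in control D7 OPCs and listed at 0 in D3 and E8, and 0.0759, 0.0291 and 0.0416 in null 3F, D6 and 7F. Its DIV2 level was 1.62, 1.25 and 3.92 in control and 0.216, 0.284 and 0.130 in null clones. Its DIV4 level was 9.06, 1.37 and 2.65 in control and 0.319, 0.661 and 0.118 in null clones. All differentiated control libraries were above all null libraries of their stage, and D7 at DIV4 was the highest.

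Since S1pr5 passed the filter only through its control DIV2 and DIV4 levels, its differences are described with no p-value. From OPC to DIV2 the change was 1.58 log2 units in control (SE 0.42) and 0.20 in null cells (SE 0.42), and the control change was 1.22 without E8. The genotype difference at DIV2 was -1.35 log2 units (SE 0.42), and -1.46 without D7. At DIV4 it was -1.72 log2 units, and -1.13 without D7.

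S1pr2, a sphingosine-1-phosphate receptor known for blocking process outgrowth, moved the other way in control cells. S1pr2 (ENSMUSG00000043895; chromosome 9, 20962361 to 20976781, minus strand, 266 kb from S1pr5) was 4.16, 2.55 and 9.43 rescaled TPM in control D7, D3 and E8 OPCs and 4.72, 3.92 and 3.85 in null 3F, D6 and 7F. S1pr2 at DIV2 was 0.571, 1.21 and 0.511 in control and 2.05, 1.51 and 1.59 in null clones. At DIV4 its level was 0.353, 3.04 and 2.75 in control and 5.20, 4.67 and 4.39 in null clones. Control libraries were lowest at DIV2, and the null libraries lay above them at DIV2 and DIV4.

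S1pr2 fell by 1.73 log2 units from OPC to DIV2 in control cells (SE 0.39, limma adjusted p = 0.00376). Without control E8 the change was -1.20 (limma adjusted p = 0.0512). On deposited TPM it was 0.018 (limma adjusted p = 0.982), so the direction of this change rests on the rescaling. In null cells it was -0.93 log2 units (SE 0.39, limma adjusted p = 0.0915), a call without D7 (limma adjusted p = 0.0369) and with only the libraries compared (0.00404). The genotype difference at DIV2 was 0.64 log2 units (SE 0.39, limma adjusted p = 0.49), and the description at DIV4 is 1.07, or 0.56 without D7.

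S1pr1, the widely expressed sphingosine-1-phosphate receptor coupled to Gi, spread widely between the control clones. S1pr1 (ENSMUSG00000045092; chromosome 3, 115710433 to 115715072, minus strand) was 0.139, 1.37 and 0.797 rescaled TPM in control D7, D3 and E8 OPCs and 0.463, 0.925 and 0.756 in null 3F, D6 and 7F. At DIV2 it was 0.0386, 1.45 and 2.52 in control and 0.190, 0.354 and 0.345 in null clones. At DIV4 it was 0.0230, 7.15 and 10.5 in control and 1.57, 1.42 and 1.82 in null clones. D7 was the lowest of all libraries at each stage, while D3 and E8 were above every null library at DIV2 and DIV4.

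S1pr1 was not called in any comparison of the rescaled fit over all libraries. The genotype difference at DIV2 was -0.68 log2 units (SE 0.67, limma adjusted p = 0.73). Without D7 that difference was -1.18 log2 units (limma adjusted p = 0.0141), and without E8 it was -0.30 (limma adjusted p = 0.918). Without D7 the change of S1pr1 from DIV2 to DIV4 in control cells was 1.72 log2 units. S1pr1 passed the filter only through control DIV4, so this difference was built in and gets no p-value. The change over that interval in null cells was 1.01 log2 units (SE 0.67, limma adjusted p = 0.51). It was called without D7 (limma adjusted p = 0.0189), and also with only the libraries compared (0.00755). The genotype difference at DIV4 is -0.82 log2 units, and -1.90 without D7. D7 was also the control clone in which the astrocyte genes Gfap, Aqp4, Slc1a2 and Slc1a3 were all at or below 0.473 rescaled TPM at DIV4, where Slc1a3 was 26.8 and 74.6 in D3 and E8. The part of astrocytes in the S1pr1 levels was not tested.

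The make-up of the sphingosine-1-phosphate receptors was read as each gene's share of their summed TPM, which does not depend on scaling and was chosen after the values were seen. In OPCs S1pr2 held 65.0% to 94.7% of the sum across both genotypes. In null cells it still held 70.4% to 83.5% at DIV2 and 69.2% to 73.4% at DIV4. In control cells its share at DIV2 was 25.7%, 30.8% and 7.35% in D7, D3 and E8. S1pr5 held 72.6%, 32.1% and 56.4% of the sum in those control libraries and 8.79%, 13.2% and 6.28% in null 3F, D6 and 7F. These shares did not overlap and get no p-value, since S1pr5 passed the filter only through control DIV2 and DIV4. At DIV4 the control clones differed among themselves: S1pr5 held 96.0% in D7, while S1pr1 held 61.9% and 66.1% in D3 and E8.

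**Figure D3:**
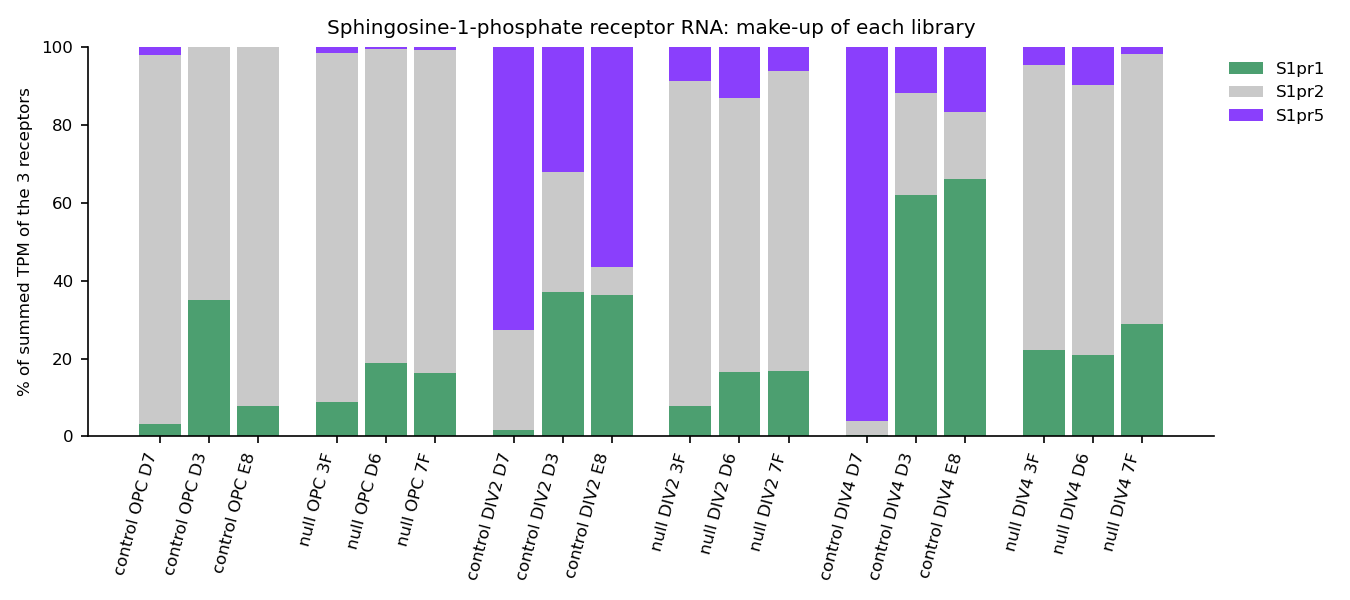
Share of S1pr1, S1pr2 and S1pr5 in the summed TPM of the 3 genes (vertical axis, percent, stacked to 100) in each of the 18 libraries. S1pr2 fills most of every OPC and every null library, while S1pr5 holds 32.1% to 72.6% in control cells at DIV2.

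Gpr17, the orphan receptor of premyelinating cells, was the most abundant of the set in control cells by group mean. Between genotypes it was not called in OPCs or at DIV2 with all clones in the rescaled fit. Gpr17 (ENSMUSG00000052229; chromosome 18, 31942997 to 31949636, minus strand) was 41.3, 136 and 16.5 rescaled TPM in control D7, D3 and E8 OPCs and 44.1, 61.0 and 61.0 in null 3F, D6 and 7F. At DIV2 it was 82.9, 96.2 and 83.7 in control and 66.1, 101 and 78.6 in null clones. At DIV4 it was 64.8, 85.2 and 62.8 in control and 119, 85.9 and 115 in null clones. The genotypes overlapped as OPCs and at DIV2, and at DIV4 the lowest null library was just above the highest control library.

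Gpr17 was not called in any comparison of the rescaled fit over all libraries; the genotype difference at DIV2 was -0.12 log2 units (SE 0.49, limma adjusted p = 0.959) and the change from OPC to DIV2 was 0.92 log2 units in control cells (SE 0.49, limma adjusted p = 0.157) and 0.55 in null cells (SE 0.49, limma adjusted p = 0.446). Control D3 OPCs, the library with few cell cycle transcripts, held the highest Gpr17 level of the whole series. Without D3 the control change was 1.63 log2 units (limma adjusted p = 0.00361), and without E8, the lowest library, it was 0.25 (limma adjusted p = 0.727). The genotype difference in OPCs went from 0.26 (limma adjusted p = 0.77) to 1.04 log2 units without D3 (limma adjusted p = 0.0458) and to -0.45 without E8 (limma adjusted p = 0.535). On deposited TPM the control change was 3.43 log2 units (limma adjusted p = 8.57e-05), where the median gene moved by 1.96. At DIV4 the description is 0.58 log2 units, and 0.52 without D7.

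Gpr17 lies within the span of Lims2, a gene on the opposite strand, and whether the authors counted by strand is not given in the sources used here, so reads of both genes may not be fully told apart. Lims2 was 8.06 to 11.0 rescaled TPM in null and 1.15 to 5.51 in control cells at DIV4, and 4.47 to 21.0 in control OPCs. At DIV4 its range lay below that of Gpr17 in both genotypes, and in control OPCs the ranges overlapped.

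P2ry1, a receptor for ADP, and the muscarinic receptors Chrm1 and Chrm3 were near the lower end of the range. P2ry1 (ENSMUSG00000027765; chromosome 3, 61002795 to 61008982, plus strand) ranged from 0 to 2.93 rescaled TPM with overlapping genotypes at every stage, and in D7 it was 0.122 at DIV2 and 0.0782 at DIV4. Its value is uncertain, since 23.0% of its 31-base words also occur in transcripts of other genes and an antisense gene, Gm37035, overlaps it. The other receptors shared at most 5.28%. Chrm1 (ENSMUSG00000032773; chromosome 19, 8663789 to 8683587, plus strand) did not pass 0.792 in any library.

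Chrm1 at DIV4 was 0.0719, 0.116 and 0.118 rescaled TPM in control D7, D3 and E8 and 0.462, 0.211 and 0.436 in null 3F, D6 and 7F. All null libraries were above all controls there, at levels too low for the test. Chrm3 (ENSMUSG00000046159; chromosome 13, 9875486 to 10360847, minus strand) was at most 0.195 except in control E8 OPCs, at 1.97. That value was a deposited TPM of 0.269 divided by a scaling factor of 0.136, the smallest of any library. TPM keeps no read depth, so no detection limit can be given for these genes.

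The order of the receptors by level changed with genotype. By group mean, Gpr17 and Gpr37l1 were the top pair in all 6 groups, with Gpr17 ahead in control cells at every stage, although the pair overlapped. Gpr37l1 also overlapped the next gene in control OPCs and at DIV4 in control cells, where D7 had more Gpr37 (30.2) and Lpar1 (25.5) than Gpr37l1 (14.6). In null cells at DIV2 Gpr37l1 (141 ± 34.1 rescaled TPM, SD, n = 3) was above Gpr17 (81.8 ± 17.5) in every library, and at DIV4 the means were 162 ± 46.8 and 107 ± 18.2 with overlap. The next place went to S1pr2 in OPCs of both genotypes and to Lpar1 in control cells at DIV2 (12.8 ± 3.97) and DIV4 (14.8 ± 9.40). In null cells it was held by Gpr37 at DIV2 (3.49 ± 0.440), overlapping Lpar1, and by S1pr2 at DIV4 (4.75 ± 0.408), above Lpar1 (2.19 ± 2.01) in every library.

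**Figure D4:**
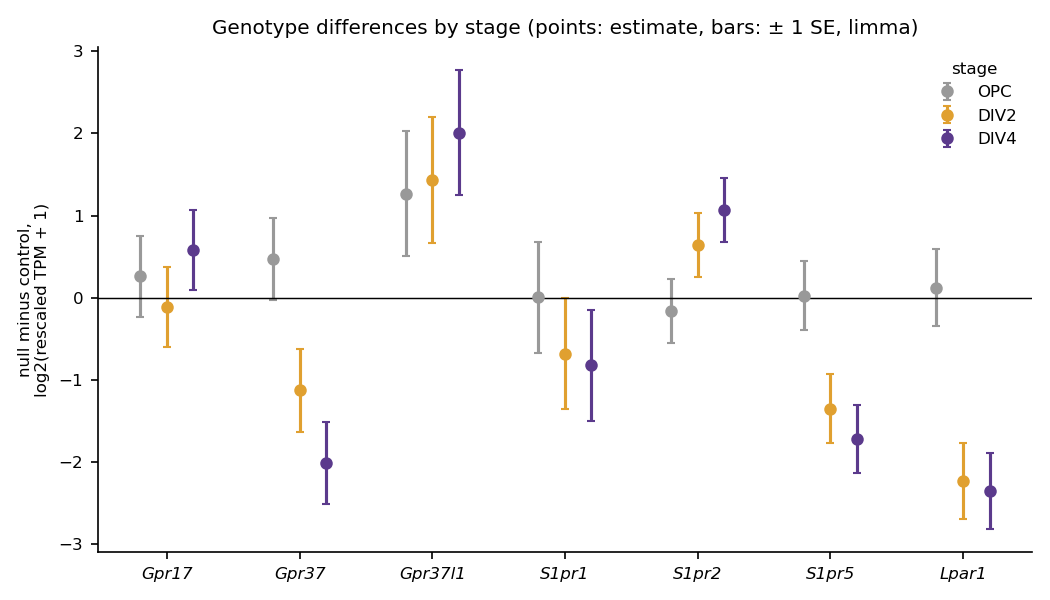
Null minus control difference on the log2(rescaled TPM + 1) scale (vertical axis) for the 7 tested receptors, as the limma estimate with bars of 1 SE, in grey for OPC, orange for DIV2 and purple for DIV4. Gpr37, S1pr5 and Lpar1 lie below 0 at DIV2 and DIV4 and Gpr37l1 and S1pr2 above 0, while the DIV4 points are descriptions that include the value used to choose the set.

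The change in the receptor set from OPC to DIV2 was tested for a genotype difference. None of the 7 receptors was called (limma), beside 0.378% of all genes. Lpar1 and Gpr37 were under 0.05 before adjustment, with S1pr5 left out because it reached the filter only through control DIV2 and DIV4. On deposited TPM the median gene shifted by -1.66 log2 units in the same comparison. There 4 receptors were called, beside 9366 of all genes tested. Those were Lpar1 (-2.71), Gpr17 (-2.48), Gpr37 (-2.22) and S1pr5 (-1.76), of which the S1pr5 call was built in by the filter and supports nothing.

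Genes around the receptors were described from lists of relatives, ligand enzymes, G proteins and desensitizing proteins, which were written with earlier results of these data known. Among 4 tested of 21 relatives of the receptor families, none was called between genotypes in OPCs or at DIV2 and 2 were called at DIV4, where 4.57% of all genes were called. P2ry12, an ADP receptor, was 0.835 ± 0.101 rescaled TPM in control and 3.17 ± 1.09 in null cells at DIV4 (SD, n = 3; 1.15 log2 units, SE 0.25, limma adjusted p = 0.0169). Lpar6, a further lysophosphatidic acid receptor, was 2.31 ± 0.775 against 0.740 ± 0.102 (SD, n = 3; -0.90 log2 units, SE 0.22, limma adjusted p = 0.0354). The P2ry12 call was lost on deposited TPM (limma adjusted p = 0.0721) and without E8, 3F or 7F (0.0578 to 0.0877). The Lpar6 call was kept on deposited TPM (limma adjusted p = 0.0431) and lost without any 1 clone other than D3 (0.0731 to 0.238).

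Among 17 tested of 36 other glial receptors, Grm7, a metabotropic glutamate receptor, showed the largest change. It rose from 0.348 ± 0.291 to 34.9 ± 15.4 rescaled TPM in control cells between OPC and DIV2 (SD, n = 3; 4.66 log2 units, SE 0.61, limma adjusted p = 9.53e-05). At DIV4 it was 31.3 ± 30.2 in control and 2.81 ± 1.87 in null cells (SD, n = 3; -2.79 log2 units, SE 0.61, limma adjusted p = 0.0183), a call lost without null 3F (limma adjusted p = 0.125) or null 7F (limma adjusted p = 0.14). At DIV2 the adhesion receptors Gpr56 and Lphn2 were called between genotypes. Gpr56 was 3.94 ± 2.58 in control and 11.7 ± 4.64 in null cells (limma adjusted p = 0.0498), and Lphn2 was 2.29 ± 0.198 and 0.868 ± 0.347 (limma adjusted p = 0.0339). Both calls were lost on deposited TPM, with limma adjusted p-values of 0.266 and 0.087. They were also lost without single clones, Gpr56 without D7, D3, 3F or 7F (limma adjusted p 0.122 to 0.328) and Lphn2 without any but D6 (0.0573 to 0.258). In OPCs 2 of the 17 were lower in null cells, beside 11.2% of all genes called. From OPC to DIV2 in control cells 1 of the 17 rose and 6 fell, beside 19.2% and 15.4% of all genes, with a median change of -0.51 log2 units against 0.07 over all genes. The falls included Gprc5b (-1.53 log2 units) and Gpr56 (-1.48), the largest, and on deposited TPM neither fell (0.37 and 0.76). Gprc5b was not called without E8 (limma adjusted p = 0.0963), nor Gpr56 without D7 (limma adjusted p = 0.0686).

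Among 13 tested of 23 enzymes and transporters that supply or remove the ligands, 6 rose and 2 fell from OPC to DIV2 in control cells, beside 19.2% and 15.4% of all genes, with a median change of 0.40 log2 units. In null cells 7 rose and 1 fell, beside 14.9% and 12.6%, with a median of 0.91. Enpp2, the secreted autotaxin that makes lysophosphatidic acid, went from 46.0 ± 37.2 to 141 ± 53.5 rescaled TPM in control cells (SD, n = 3; 1.83 log2 units, SE 0.41, limma adjusted p = 0.00376), a call lost with only the libraries compared (limma adjusted p = 0.0958). Nt5e, which makes adenosine from AMP, rose from 0.942 ± 0.807 to 9.48 ± 4.53 (SD, n = 3; 2.41 log2 units, SE 0.46, limma adjusted p = 0.00123). The falls were Entpd1 (-1.62 log2 units), which breaks down ATP, and Ppap2a (-0.67), a lipid phosphatase, and neither fell on deposited TPM (0.041 and 0.86). Both calls were lost without E8 (limma adjusted p = 0.0769 and 0.227), and that of Ppap2a without 7F (limma adjusted p = 0.0623).

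Between the genotypes 2 of these 13 were higher and 1 lower in null OPCs, 3 were higher at DIV2 and 1 was higher at DIV4, beside 11.2%, 2.68% and 4.57% of all genes called. Bche, which breaks down choline esters, was 2.83 ± 1.77 rescaled TPM in control and 8.33 ± 1.11 in null cells at DIV2 (SD, n = 3; limma adjusted p = 0.0434). It was 2.23 ± 1.17 and 7.49 ± 1.43 at DIV4 (SD, n = 3; limma adjusted p = 0.0275). Ppap2c, a lipid phosphatase that removes lysophosphatidic acid and sphingosine-1-phosphate, was 1.64 ± 0.571 and 4.13 ± 0.900 at DIV2 (SD, n = 3; limma adjusted p = 0.0285). The remaining enzyme called at DIV2, named after its values were seen, was Sgpl1, the lyase that degrades sphingosine-1-phosphate. The Bche and Ppap2c calls were lost on deposited TPM, with limma adjusted p-values of 0.228 and 0.153 for Bche at DIV2 and DIV4 and 0.15 for Ppap2c. They were also lost without single clones: Bche at DIV2 was not called without D3 or any 1 null clone (limma adjusted p 0.0863 to 0.324), Bche at DIV4 without any 1 null clone (0.0676 to 0.193), and Ppap2c without any clone but D3 (0.0547 to 0.269).

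Of 35 tested G proteins and first effectors, 8 rose and 3 fell from OPC to DIV2 in control cells, beside 19.2% and 15.4% of all genes, and 9 rose and 3 fell in null cells, beside 14.9% and 12.6%. Between the genotypes 6 were lower in null OPCs, 2 were lower at DIV2 and 1 was higher at DIV4, beside 11.2%, 2.68% and 4.57% of all genes called. Itpr2, a calcium release channel that acts after Gq-coupled receptors, rose from 4.98 ± 3.55 to 33.6 ± 5.98 rescaled TPM in control cells (SD, n = 3; 2.67 log2 units, SE 0.37, limma adjusted p = 0.000145). At DIV2 it was 10.9 ± 5.92 in null cells (SD, n = 3), lower by -1.63 log2 units (SE 0.37, limma adjusted p = 0.0292), a call lost without null 3F (limma adjusted p = 0.293), null 7F (limma adjusted p = 0.266) or control D7 (limma adjusted p = 0.0648). Gnao1, the G protein subunit Go, rose from 2.57 ± 0.167 to 13.6 ± 2.27 in control cells (SD, n = 3; limma adjusted p = 0.000114). Adcy5, an adenylyl cyclase, was 6.57 ± 0.352 in control and 4.33 ± 0.562 in null cells at DIV2 (SD, n = 3; limma adjusted p = 0.023). At DIV4 only Gna13, a G protein alpha subunit, was called, at 16.6 ± 6.43 in control and 34.0 ± 3.52 in null cells (SD, n = 3; limma adjusted p = 0.0214). On deposited TPM the Adcy5 and Gna13 calls were lost (limma adjusted p = 0.358 and 0.467). Adcy5 kept its call only without D7 when clones were left out (limma adjusted p 0.0611 to 0.131 without each other clone), and Gna13 lost it without E8 or any 1 null clone (0.0541 to 0.16). Plcb3 (-0.97) and Gnaz (-0.58) fell in control cells by DIV2, but changed by 0.84 and 1.37 log2 units on deposited TPM. Gnaz was not called without D3, E8, 3F or 7F (limma adjusted p 0.0546 to 0.18).

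Among 14 tested genes of receptor desensitization, 1 rose and 7 fell from OPC to DIV2 in control cells, beside 19.2% and 15.4% of all genes, with a median change of -0.55 log2 units. In null cells 2 rose and 4 fell, beside 14.9% and 12.6%, with a median of -0.38. Between the genotypes 1 was higher in null OPCs and none was called at DIV2, beside 11.2% and 2.68% of all genes called. At DIV4 3 were called, 2 higher and 1 lower in null cells, beside 4.57%. In control cells from OPC to DIV2 the rise was Rgs3 (1.41 log2 units). Rgs19 (-1.83) and Rgs10 (-1.71), which speed the shut-off of G proteins, fell the most, and on deposited TPM these 2 changes were 0.28 and 0.30. Rgs3 was not called without D3, E8, 3F or 7F (limma adjusted p 0.0592 to 0.0728). Both arrestins were called at DIV4. Arrb1 was 11.6 ± 3.70 rescaled TPM in control and 30.7 ± 3.53 in null cells (SD, n = 3; limma adjusted p = 0.0372), and Arrb2 was 8.22 ± 0.671 and 16.1 ± 1.66 (SD, n = 3; limma adjusted p = 0.0136). On deposited TPM both calls were lost, with limma adjusted p-values of 0.318 for Arrb1 and 0.354 for Arrb2, and leaving out any 1 clone but D3 lost that of Arrb1 (0.0739 to 0.218), and 3F or 7F that of Arrb2 (0.0869 to 0.142). Rgs7 was 3.51 ± 0.570 and 1.14 ± 0.206 at DIV4 (SD, n = 3; limma adjusted p = 0.0444), a call kept only without E8 when clones were left out (limma adjusted p 0.0536 to 0.234 without each other clone).

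With only the libraries compared in the fit, the genotype calls of P2ry12, Lpar6, Grm7, Gpr56, Lphn2, Bche, Ppap2c, Itpr2, Adcy5, Gna13 and Arrb1 were lost (limma adjusted p 0.0594 to 0.171), and those of Arrb2 and Rgs7 were kept.

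Genes whose 6 group means ran most like those of a receptor were named by the smallest root-mean-square difference, after centring, among 6904 protein-coding genes with a mean of at least 5 rescaled TPM. For Gpr17 they were Rmnd5a (0.081 log2 units), Tspyl4 (0.091), 4931406P16Rik (0.097), Usp8 (0.11) and Atf6 (0.11). For Gpr37 they were Reep5 (0.26), Fgfr2 (0.29), Cyb5 (0.30), Sema6d (0.32) and Rap1a (0.33). The likeness spans 6 groups that share clones and library scaling and is a description.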

How the data were processed

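RNA abundance was measured by total RNA sequencing of 18 libraries (6 clonal lines at 3 stages), made with a stranded kit that removes ribosomal RNA, per the labels' protocols. The deposited values are TPM, 1 per Ensembl transcript and library, for 93666 transcripts; every deposited TPM column sums to 1000000. STAR, Picard and mm10 are named by the submitters' processing notes; the quantifier, its annotation, its strand setting and filters are not given in the sources used here. TPM holds no depth, so precision rests on 3 clones per group.

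TPM was summed by symbol (38046 genes, 25 date-like symbols restored through transcript identifiers) and rescaled by median-of-ratios factors from 14689 genes above 0 in every library. Genes with a mean of at least 1 rescaled TPM were fitted with limma 3.58.1 (R 4.3.3) on log2(rescaled TPM + 1), 1 mean per group, eBayes with a trend, Benjamini-Hochberg adjustment within each comparison. The fit was tested on simulated data. Shares of Gpr37 in its pair with Gpr37l1 were compared by exact permutation tests (scipy 1.17.1, Python 3.11.15). Coordinates are from GENCODE M21 on GRCm38, which held 96.5% of the transcript identifiers.

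Stages share clones, so numbers pair libraries by cell line: deviations from group means correlated at a mean r of 0.118 within a clone (-0.0136 to 0.425 over 18 pairs) and -0.059 between clones. The blocked fit was an alternative. Others were deposited TPM, quantile normalization, protein-coding transcripts only, no filter, a mean of at least 5, a pseudocount of 0.1, no trend, only the libraries compared, and leaving out each clone. The receptors and gene lists were chosen with earlier results of these data known. Genes named from a list are the 2 largest rises and falls among those called between genotypes at DIV2, at DIV4, or from OPC to DIV2 in control cells.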

Additional observations from a re-analysis of the deposited data

How the results depend on the processing

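Most of 76 single-gene results kept their direction and side of the threshold: over all alternatives 900 values did, 133 lost a call, 36 gained one and 29 changed sign. On deposited TPM, the number of receptors called was 4 rather than 0 between genotypes in OPCs, 2 rather than 1 at DIV2, 3 rather than 1 in null cells from OPC to DIV2 and 4 rather than 0 for the genotype difference in the change. Over all genes, those 4 comparisons gave 10446, 203, 2297 and 9366 calls on deposited TPM, and 1397, 333, 3414 and 47 after rescaling. With only the libraries compared, it was 0 at DIV2, 4 in null cells from OPC to DIV2 and 2 from DIV2 to DIV4 in null cells. In those fits 321, 4194 and 1977 of all genes were called, against 333, 3414 and 209 in the main fit. A pseudocount of 0.1 gave 0 at DIV2 and 2 in null cells from OPC to DIV2, where coding transcripts only gave 2, no filter 0 and no trend 0. Over all genes, the pseudocount gave 309 calls at DIV2. In null cells from OPC to DIV2 it gave 3423, coding transcripts only 3466, no filter 3324 and no trend 3412. Requiring a mean of at least 5 gave 2 rather than 4 calls in control cells from OPC to DIV2 and 3 rather than 6 receptors apart at DIV4, with fewer genes tested. Those calls were of Lpar1 and Gpr37l1. Gpr37l1 was not called in the main fit (limma adjusted p = 0.0568) and was at this filter (0.0487). Gpr37, S1pr1, S1pr2 and S1pr5 fell below this mean and were not tested. Over all genes 3076 were called there, against 4309 in the main fit. The replicate block gave 2 calls rather than 1 in null cells from OPC to DIV2 and 5 rather than 4 in control cells, through Lpar1 and Gpr37l1, and changed no other receptor's call. Over all genes the block gave 3807 calls in null and 4773 in control cells over that interval, against 3414 and 4309 in the main fit. Leaving out 1 clone gave 0 to 1 calls between genotypes in OPCs, 0 to 3 at DIV2, 2 to 6 in control and 0 to 4 in null cells from OPC to DIV2, and 0 to 1 from DIV2 to DIV4 in either genotype, and 6 to 7 receptors apart at DIV4. Over all genes these fits gave 290 to 2229 calls between genotypes in OPCs and 107 to 610 at DIV2. From OPC to DIV2 they gave 2604 to 4673 in control and 1408 to 4031 in null cells. From DIV2 to DIV4 they gave 7 to 262 in control and 5 to 705 in null cells. Calls of S1pr5 in all these counts, of S1pr1 at DIV4 in control cells, and of Lpar1 with a mean of at least 5, support nothing. Each passed the filter only through the control groups concerned.

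Signs changed for these log2 values. On deposited TPM: S1pr2 between genotypes in OPCs 1.32 and from OPC to DIV2 in control cells 0.018, the genotype difference in the change for Gpr37l1 -1.68 and S1pr2 -0.69, and in control cells from OPC to DIV2 Gprc5b 0.37, Gpr56 0.76, Entpd1 0.041, Ppap2a 0.86, Plcb3 0.84, Gnaz 1.37, Rgs19 0.28 and Rgs10 0.30, where the median of all genes moved by 1.96. With quantile normalization: S1pr1 -0.39, S1pr5 -0.29 and Lpar1 -0.40 between genotypes in OPCs, and S1pr1 -0.070 from OPC to DIV2 in control cells. Leaving out clones, the range between genotypes in OPCs was -0.45 to 1.04 for Gpr17, -0.28 to 0.25 for S1pr1 and -0.51 to 0.27 for S1pr2. For Gpr17 between genotypes at DIV2 it was -0.27 to 0.026 and for S1pr1 from OPC to DIV2 in control cells -0.043 to 0.51. From DIV2 to DIV4 it was -0.18 to 1.01 for S1pr5 and -0.35 to 0.38 for Lpar1 in control cells, and -0.22 to 0.22 for Lpar1 in null cells. For the genotype difference in the change it was -1.08 to 0.30 for Gpr17 and -0.32 to 0.72 for Gpr37l1. Of the values that changed sign, only that of S1pr2 from OPC to DIV2 and those of the 8 list genes had been called; the cause was not tested. Where a clone is left out, the remaining pair is assumed to vary like the other groups.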
